A study of Caenorhabditis elegans with 2 samples.

Results

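The mir-51 family of Caenorhabditis elegans consists of the microRNA genes cel-mir-51, cel-mir-52, cel-mir-53, cel-mir-54, cel-mir-55 and cel-mir-56, named here without the species prefix. The 6 genes were taken by symbol from the Ensembl annotation of genome build WBcel235, which has the coordinates of ce11, and they were 6 of 261 annotated microRNA genes. Binding of the T-box transcription factor TBX-37 near them was read from deposited chromatin immunoprecipitation sequencing (ChIP-seq) peak lists. The genes belong to the family by name, but the family itself was chosen by the signal values of peaks at mir-51 and mir-52 in these lists, so peak values are given as a description, without a test.

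The study profiled 1 group, whole early embryos isolated by egg bleaching and labelled 0 hours, in 2 biological replicates. All embryos were of strain RW12282, in which CRISPR had inserted a TY1::EGFP::3xFLAG tag at tbx-37 on chromosome III (allele st12282), and the precipitation used an anti-GFP antibody according to the sample descriptions, while the antibody field of the labels names tbx-37. No untagged strain, other stage or other condition was compared. Whole embryos mix every cell lineage, so a site bound in few cells and a site weakly bound in many cannot be told apart. Sequencing depth is unknown, because the lists hold no read counts.

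MicroRNAs are short RNAs cut from hairpin precursors, and they guide Argonaute proteins to messenger RNAs that pair with the microRNA's seed, bases 2 to 8 of the mature strand. The mir-51 family is related to the miR-99 and miR-100 family of other animals. In C. elegans its members act redundantly and are abundant in embryos, and loss of the whole family causes embryonic lethality with defects in pharynx attachment. TBX-37 acts with its paralog TBX-38 in descendants of the ABa blastomere, which give rise to the anterior pharynx among other tissues.

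The mature sequences show what the members share. They were read from the RefSeq annotation and genome of WBcel235 and are written 5′ to 3′, with the seed in capitals.
mir-51: uACCCGUAgcuccuauccauguu
mir-52: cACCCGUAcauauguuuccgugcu
mir-53: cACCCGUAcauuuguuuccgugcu
mir-54: uACCCGUAaucuucauaauccgag
mir-55: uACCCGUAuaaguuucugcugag
mir-56: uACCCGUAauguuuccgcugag
All 6 carry the seed ACCCGUA, the property that defines the family. Among 458 annotated mature RNAs of 260 microRNA genes, these 6 were the only ones with it. The strand with this seed lies on the 5′ arm of the hairpin in mir-51, mir-52 and mir-53 and on the 3′ arm in mir-54, mir-55 and mir-56. Outside the seed the members diverge. The mature RNAs of mir-52 and mir-53 were identical at 23 of 24 aligned positions (95.8%), and their precursors at 79.0%. The mature RNAs of mir-55 and mir-56 were 87.0% identical, with precursors at 54.8%. For the other pairs the mature RNAs were 57.7% to 72.0% identical and the precursors 45.0% to 57.1%.

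The genes lie at 3 places. The mir-51 precursor is at IV:11026013-11026112 and that of mir-53 at IV:11027593-11027691, both on the minus strand and 1480 bp apart. That pair lies between the protein-coding genes alh-3, whose start is 3410 bp from mir-51, and hrg-5, whose start is 1737 bp from mir-53. mir-52 is at IV:14034008-14034107 on the plus strand, 3007895 bp from mir-51. Its nearest protein-coding gene starts are those of irld-55, at 13810 bp, and Y37A1B.7, at 9673 bp. mir-54, mir-55 and mir-56 form a cluster on the minus strand at X:13144996-13145094, X:13144827-13144924 and X:13144691-13144787, separated by 71 and 39 bp. The cluster lies within an intron of F09A5.3, a gene on the opposite strand whose start is 3090 bp from mir-56, and the next gene start on the other side is that of mob-2, 24981 bp from mir-54.

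The sequences below surround peaks and candidates described in the following paragraphs. Each is the 300 bases around a summit, the position of highest signal, written 5′ to 3′ on the strand of the microRNA gene, with the bases of the family's mature strand in capitals where the window holds them (WBcel235, RefSeq). The mir-51 and mir-52 windows are shown because they hold the strongest peaks of the family. The mir-53 and mir-54 windows hold candidates in the same position that did not reach the conservative list, and the last window holds the stronger conservative peak beside mir-56.
mir-51 upstream peak, IV:11026056-11026355, minus strand: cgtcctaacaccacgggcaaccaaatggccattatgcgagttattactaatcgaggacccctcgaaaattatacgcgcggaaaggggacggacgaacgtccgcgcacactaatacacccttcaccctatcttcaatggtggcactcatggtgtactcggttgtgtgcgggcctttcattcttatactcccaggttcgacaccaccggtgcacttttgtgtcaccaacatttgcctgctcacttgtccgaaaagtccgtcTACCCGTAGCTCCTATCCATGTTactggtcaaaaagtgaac
mir-52 upstream peak, IV:14033812-14034111, plus strand: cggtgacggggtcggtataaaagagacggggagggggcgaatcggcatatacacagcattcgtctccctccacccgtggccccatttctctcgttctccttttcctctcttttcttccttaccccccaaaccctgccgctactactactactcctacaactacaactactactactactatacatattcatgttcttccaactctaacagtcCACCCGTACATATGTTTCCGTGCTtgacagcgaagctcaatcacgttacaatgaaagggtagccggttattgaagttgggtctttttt
mir-53 upstream candidate, IV:11027674-11027973, minus strand: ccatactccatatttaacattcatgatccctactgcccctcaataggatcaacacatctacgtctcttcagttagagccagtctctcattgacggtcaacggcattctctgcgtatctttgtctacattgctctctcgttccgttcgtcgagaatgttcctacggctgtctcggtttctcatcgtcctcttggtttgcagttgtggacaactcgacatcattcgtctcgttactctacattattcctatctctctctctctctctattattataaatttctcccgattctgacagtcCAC
mir-54 upstream candidate, X:13145071-13145370, minus strand: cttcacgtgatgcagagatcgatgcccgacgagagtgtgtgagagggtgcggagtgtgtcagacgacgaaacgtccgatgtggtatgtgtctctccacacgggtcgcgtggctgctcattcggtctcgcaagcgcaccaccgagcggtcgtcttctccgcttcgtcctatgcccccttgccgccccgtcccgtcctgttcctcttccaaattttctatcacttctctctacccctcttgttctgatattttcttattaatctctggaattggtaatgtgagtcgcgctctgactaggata
peak downstream of mir-56, X:13144218-13144517, minus strand: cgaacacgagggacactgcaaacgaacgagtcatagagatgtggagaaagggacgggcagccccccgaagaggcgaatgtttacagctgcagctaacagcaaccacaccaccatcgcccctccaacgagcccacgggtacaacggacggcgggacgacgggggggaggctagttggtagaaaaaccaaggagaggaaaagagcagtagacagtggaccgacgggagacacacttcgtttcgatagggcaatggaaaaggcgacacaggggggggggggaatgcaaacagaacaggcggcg
Every 36-base word of these windows occurred once in the genome, with 0 of 265 words repeated in each window.

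All 6 genes had a TBX-37 peak summit within 5000 bp in the conservative list, the authors' list of 1107 peaks called across both replicates. The same held for 20.7% of all 261 microRNA genes and for 18.8% of the 255 outside the family. In the authors' other series-wide thresholded list the count was again 6, beside 20.3% of all microRNA genes. The share was 56.2% for tRNA genes, 32.4% for snoRNA genes and 11.8% for protein-coding gene starts. The 6 genes are not 6 separate observations, since neighbours share a window. They rested on 5 listed peaks at the 3 places, and those at the X cluster overlap each other. Signal, the authors' measure of peak strength, ranged from 3.30 to 794 in the conservative list with a median of 104, and it is compared here only within a list. The 5 peaks spanned almost that whole range of ranks, from rank 8 to rank 1089.

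The strongest peak of the family lay just upstream of mir-51, at IV:11026095-11026323, with its summit 94 bp from the precursor and its edge overlapping the precursor by 18 bp. Its signal was 468, rank 8 of the 1107 conservative peaks. In the longer list of all 66355 ranked candidates its rank was 51, so most of the stronger candidates had not entered the conservative list. Replicate 1 listed it with a signal of 154, rank 18 of its 538 peaks, and replicate 2 with 304, rank 7 of its 817 peaks. The summit was at the same base in replicate 1 as in the combined list and 3 bp away in replicate 2. The irreproducible discovery rate (IDR) is low where a candidate ranks consistently high in the lists compared. For this peak it was 1e-05 in each of the 4 ranked lists, the lowest value they contain. The peak stood well above its surroundings in each replicate: the next strongest candidate within 5000 bp of mir-51 was 4.96-fold weaker in replicate 1 and 6.81-fold weaker in replicate 2.

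The summit upstream of mir-51 also lies in an annotated noncoding RNA gene, F36H1.17, at IV:11026131-11026219 on the same strand. Of all conservative summits, 177 (16.0%) lay within a gene of this class, which covers 1.09% of the genome. In signal the peak ranked beside peaks at other small RNA genes. The pair just above it were a peak 65 bp from the snoRNA gene ZK265.10 (signal 605) and a peak in a tRNA gene near col-181 (475). The pair just below were a peak in the snoRNA gene ZK994.7 (466) and a peak in a tRNA gene near C04A11.5 (447).

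A second conservative peak, at IV:11026770-11027025, lay between the members of this pair, 786 bp upstream of mir-51 and 695 bp downstream of mir-53. Its signal was 68.7, rank 992 of 1107, and its score of 999 and IDR of 0.00391 were the closest to the threshold of the family's peaks; the highest IDR in the conservative list was 0.00999. In the replicates its signal was 31.1, rank 1335 of 39578 candidates with an IDR of 0.0560, and 42.1, rank 1691 of 44219 candidates with an IDR of 0.0607. It was in neither replicate's own thresholded list. Just outside the threshold was a candidate at X:13143157-13143412, 1406 bp downstream of mir-56, with a signal of 68.6 and an IDR of 0.0141.

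At mir-52 the peak again lay immediately upstream. It spanned IV:14033900-14034024, with its summit 46 bp from the precursor and an overlap of 17 bp, and its signal was 204, rank 166 of 1107 with an IDR of 3.96e-05. Replicate 1 listed a signal of 75.1, rank 187 of 538, and replicate 2 a signal of 117, rank 194 of 817. The next strongest candidate within 5000 bp was 2.92-fold weaker in replicate 1 and 2.54-fold weaker in replicate 2. Its width of 125 bp was among the 18.0% of conservative peaks narrower than the median of 256 bp. In the replicates the listed interval was wider and reached over the precursor. Replicate 1 gave IV:14033873-14034108, covering all 100 bp of it, and replicate 2 gave IV:14033858-14034097, covering 90 bp. Their widths of 236 and 240 bp were the medians of the replicates' thresholded lists, where 13.6% and 17.5% of peaks were narrower. The overlap with the precursor therefore does not show how far binding extended. A weaker neighbour at IV:14034036-14034291, with a signal of 24.1, was in the other series-wide thresholded list. The series-wide ranked lists differed on it, with an IDR of 1e-05 in the other one and 0.813 in the conservative ranked list.

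The summit at mir-52 lies in annotated noncoding RNA genes on both strands, both with Y37A1B clone names. They are at IV:14033557-14034004 on the plus strand and at IV:14033942-14034090 on the minus strand. The latter overlaps the mir-52 precursor and ends within it. The conservative peaks nearest in signal were of mixed kinds. Just above were a peak in a tRNA gene near C16B8.3 and a peak 6298 bp from nspa-10, and just below were peaks at the starts of cyn-4 (131 bp) and mib-1 (77 bp). Their signals were 203 to 204.

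**Figure D1:**
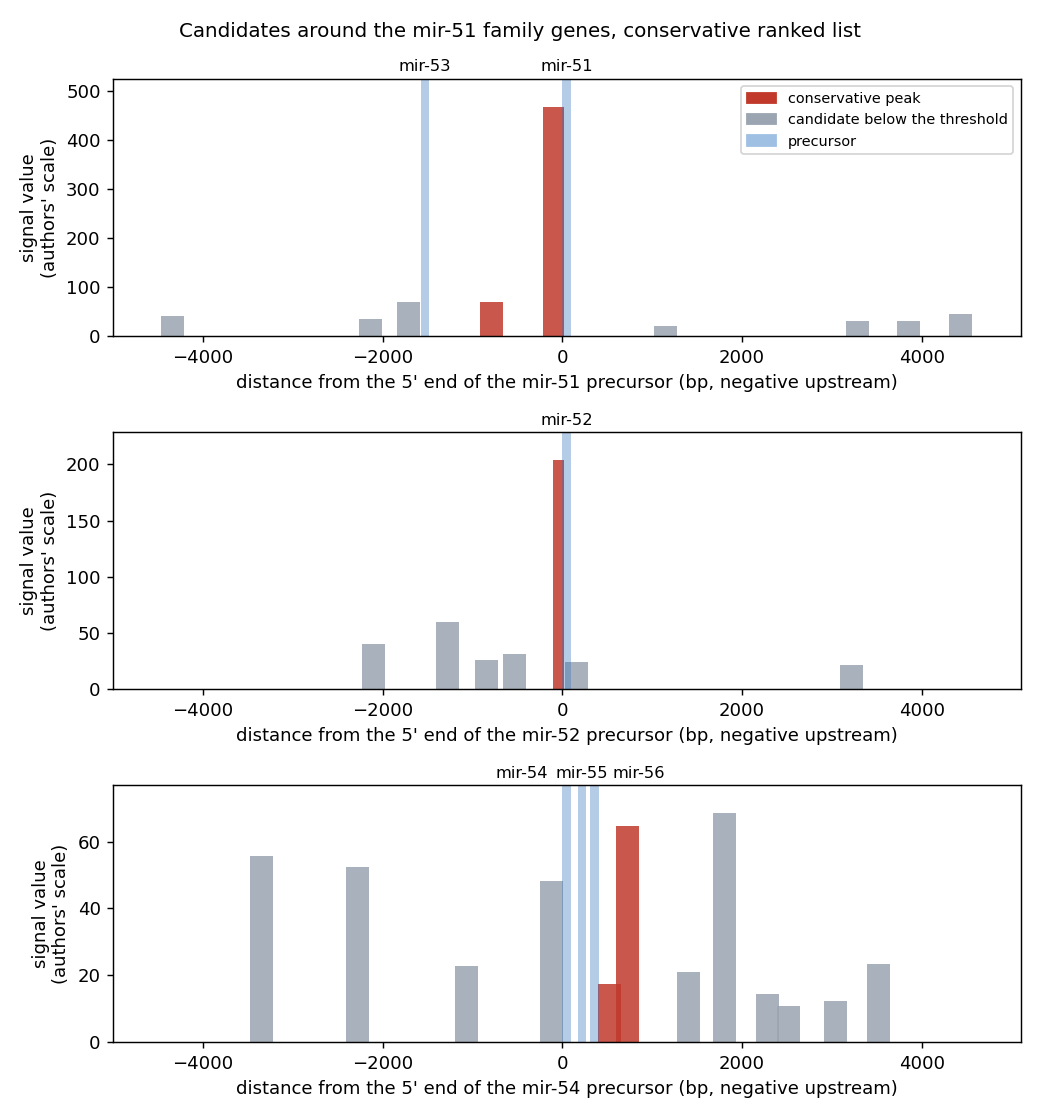
Candidates of the conservative ranked list around mir-51 and mir-53 (top), mir-52 (middle) and the mir-54, mir-55 and mir-56 cluster (bottom); the horizontal axis is the distance in bp along the direction of the named microRNA gene, the height is the authors' signal value, red bars are conservative peaks, grey bars are other candidates and blue bands are precursors. The red bars of 468 and 204 adjoin the 5′ ends of mir-51 and mir-52, whereas the red bars of 64.8 and 17.6 at the cluster lie beyond the 3′ end of mir-56, with candidates of like height around them.

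At the X cluster the conservative peaks were weak and lay on the other side of the genes. The stronger, at X:13144240-13144495, was 323 bp downstream of mir-56, 459 bp downstream of mir-55 and 628 bp downstream of mir-54, with a signal of 64.8, rank 1039 of 1107. The other, at X:13144441-13144696, overlapped it and lay 122 bp downstream of mir-56, with a signal of 17.6, rank 1089. The latter stood at rank 50975 of the 66355 candidates by signal and yet had an IDR of 0.000922. Only 20 conservative peaks (1.81%) had a candidate rank beyond 10000. Both peaks are upstream, by 462 and 261 bp, of mir-55b, a gene annotated on the opposite strand of mir-55 and not counted in the family.

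The conservative peaks beside mir-56 overlapped 1 candidate in each replicate, and the replicates placed its summit differently. The replicate 1 candidate was at X:13144248-13144483, with a signal of 37.0, rank 858 and an IDR of 0.0370. The replicate 2 candidate was at X:13144402-13144641, with a signal of 59.0, rank 837 and an IDR of 0.811. The replicate 1 summit was 2 bp from that of the stronger combined peak, and the replicate 2 summit was 154 bp from it and 47 bp from that of the weaker one. Neither was in its replicate's thresholded list, where the nearest peak was 23390 bp from mir-56 in replicate 1 and 23375 bp in replicate 2. They were among 11 candidates of replicate 1 and 7 of replicate 2 within 5000 bp of mir-56, and others were placed more alike: the candidate farther downstream had its summit 1380 bp from mir-56 in replicate 1 (signal 37.0) and 1406 bp in replicate 2 (33.1). The cluster also lacked a candidate that stood out, since the strongest exceeded the next by 1.06-fold in the conservative ranked list, 1.00-fold in replicate 1 and 1.59-fold in replicate 2.

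Counted in the replicates' own thresholded lists, 3 members had a peak within 5000 bp in each replicate: mir-52, and mir-51 with mir-53 through the mir-51 peak. Over all microRNA genes the share was 10.7% in replicate 1 and 14.9% in replicate 2. mir-53 thus had no peak of its own in these lists, and the one counted for it was 1387 bp downstream in replicate 1 and 1390 bp downstream in replicate 2, on the far side of the gene from its 5′ end.

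The position immediately upstream separated the members. In the conservative list 2 of 6 genes, mir-51 and mir-52, had a summit within 200 bp upstream of the precursor, a distance chosen after the values had been seen. Of all microRNA genes 1.15% did, and the only other was mir-5549, with a signal of 120. For comparison the share was 9.15% of tRNA genes and 16.5% of snoRNA genes. In the replicates' thresholded lists the family again contributed mir-51 and mir-52, beside 1.15% of all microRNA genes in replicate 1 and 1.53% in replicate 2.

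With all candidates counted, below the threshold as well, 4 members had a summit in this position, mir-51, mir-52, mir-53 and mir-54, and the same 4 did so in each of the 4 ranked lists. Among all microRNA genes the share was 24.9% in the conservative ranked list, 19.5% in the other series-wide ranked list, 19.2% in replicate 1 and 17.2% in replicate 2. mir-55 and mir-56, whose upstream neighbours in the cluster are 71 and 39 bp away, had none in these lists.

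The mir-53 candidate, at IV:11027696-11027951, had its summit 133 bp upstream and differed in strength between replicates. Its signal of 69.4 was rank 1364 of 66355, but its IDR was 0.456, and 0.608 in the other series-wide ranked list. Of the candidates with a signal at least as high, 976 (71.6%) were conservative peaks. Replicate 1 gave a signal of 17.4, rank 13378, with the summit 124 bp upstream, and replicate 2 a signal of 44.7, rank 1433, with the summit 127 bp upstream. That is the top 33.8% of candidates in replicate 1 and the top 3.24% in replicate 2, so the position was alike and the rank was not. The upstream signal at mir-52, the member nearest to mir-53 in sequence, was 204 in the same list.

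The mir-54 candidate, at X:13145093-13145348, had its summit 127 bp upstream, a signal of 48.2, rank 4979 and an IDR of 0.0613. In the other series-wide ranked list the same candidate had an IDR of 0.764. Replicate 1 gave a signal of 22.9, rank 4520, with the summit 98 bp upstream, and replicate 2 a signal of 31.3, rank 5358, with the summit 170 bp upstream. These are the top 11.4% and 12.1% of the candidates, alike in rank and well below the ranks at mir-51 and mir-52. The summit of the conservative ranked list and that of replicate 2 lie in an annotated noncoding RNA gene on the same strand, F09A5.11, at X:13145213-13145271, and that of replicate 1 lies outside it.

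**Figure D2:**
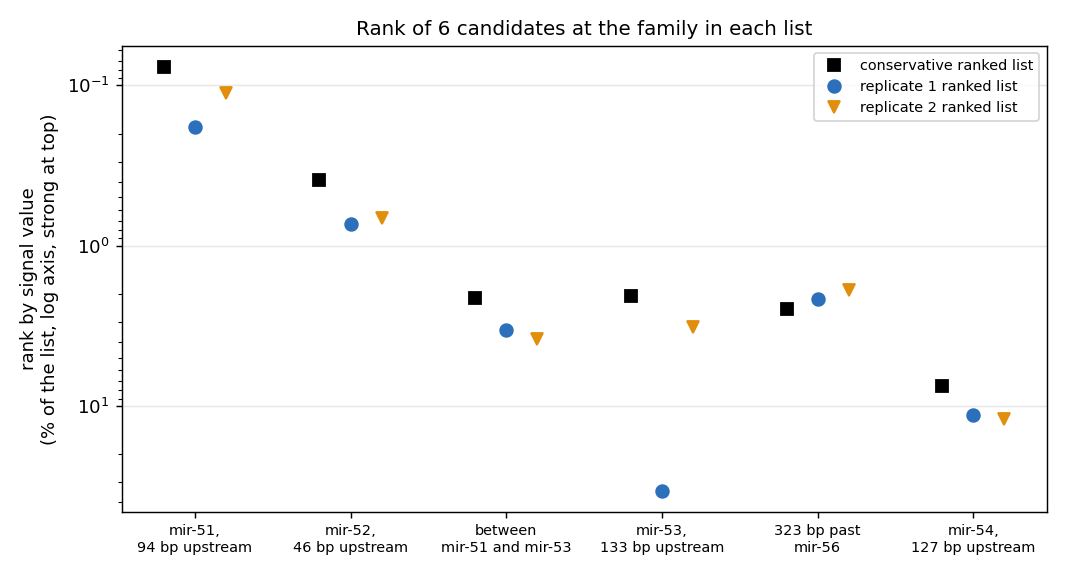
Rank by signal value of 6 candidates at the family, as a percent of all candidates in the list (log axis, strongest at the top), in the conservative ranked list and in each replicate's ranked list; each point is 1 candidate in 1 list. The mir-51 peak (0.0769%, 0.182% and 0.111%) and the mir-52 peak (0.389%, 0.733% and 0.669%) keep their order in the 3 lists, and the mir-53 candidate falls to 33.8% in replicate 1. Replicate points are candidates that overlap the site. Past mir-56, the replicate 2 candidate had its summit 154 bp from that of the conservative peak and an IDR of 0.811.

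Among all microRNA genes, the mir-51 and mir-52 candidates were the strongest and the next strongest of those within 200 bp upstream, in each of the 4 ranked lists. There were 65 such genes in the conservative ranked list, with a median signal of 35.1, 50 in replicate 1, with a median of 16.4, and 45 in replicate 2, with a median of 27.4. mir-5549 came next in each list, with 120, 41.9 and 82.8. mir-53 was 6th in the conservative ranked list, 24th in replicate 1 and 6th in replicate 2, and mir-54 was 17th, 13th and 14th. This order is a description only. The family was chosen by the mir-51 and mir-52 signals, and the 200 bp distance after the values were seen. Both series-wide ranked lists give these candidates the same signals, 468 and 204, so they are not separate observations.

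With the wider window of 5000 bp the candidate of mir-51, shared with mir-53, was the 3rd strongest of any microRNA gene in each ranked list. mir-239a and mir-239b, which share a peak at X:11788736-11788926 with a signal of 689, came before it, but that peak was 3588 and 2445 bp from them. mir-52 was 19th in both series-wide lists, 17th in replicate 1 and 19th in replicate 2. These places count genes, so genes that share a candidate each take a place. For example, mir-35 to mir-41 share a candidate of signal 218, and each came before mir-52 in the conservative ranked list. The X cluster was 61st in the conservative ranked list, 42nd in replicate 1 and 36th in replicate 2. The median microRNA gene outside the family had its strongest candidate in the top 7.54% of the conservative ranked list, 12.2% of replicate 1 and 12.2% of replicate 2. The corresponding values were 2.12%, 2.17% and 1.89% for the cluster, from candidates with different summits. In the conservative ranked list it was the candidate at X:13143157-13143412, which was not a conservative peak (IDR 0.0141). In replicate 1 it was X:13144248-13144483 (IDR 0.0370) and in replicate 2 X:13144402-13144641 (IDR 0.811). The stronger conservative peak beside mir-56 was at 2.49% of the conservative ranked list. A window of this width held a median of 8 candidates for microRNA genes in the conservative ranked list, against 9 for mir-51, 7 for mir-52, 9 for mir-53 and 12 for each gene of the cluster.

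**Figure D3:**
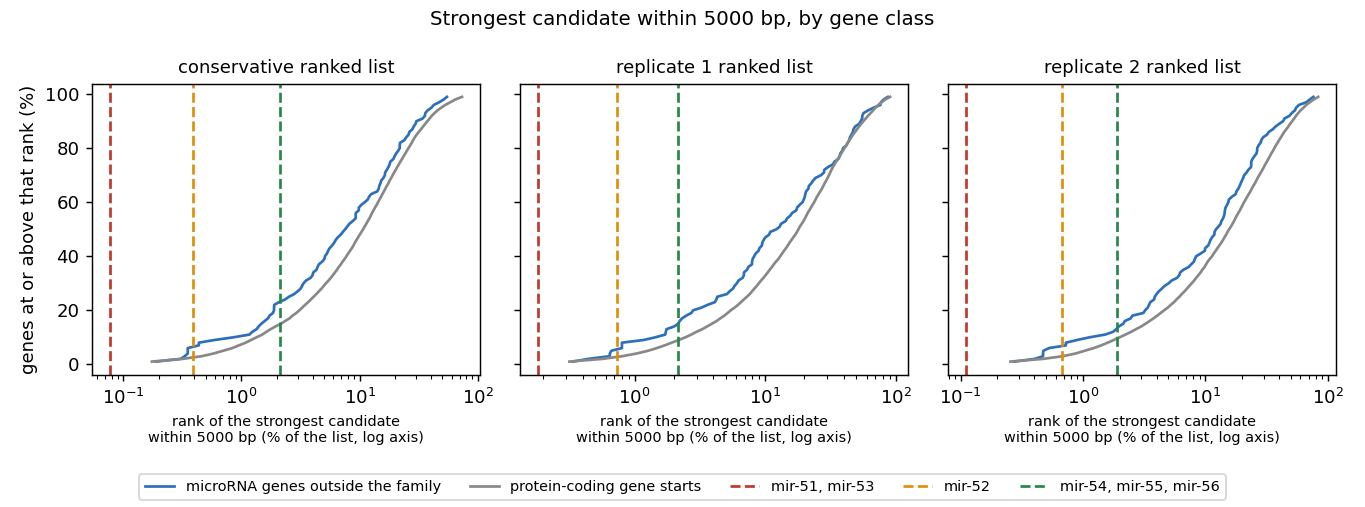
Cumulative share of genes (vertical axis, %) by the rank of their strongest candidate within 5000 bp (horizontal axis, % of the list, log axis) for microRNA genes outside the family and for protein-coding gene starts, in 3 ranked lists; dashed lines mark the family. The line shared by mir-51 and mir-53 lies at 0.0769%, 0.182% and 0.111%, that of mir-52 at 0.389%, 0.733% and 0.669%, and that of the X cluster at 2.12%, 2.17% and 1.89%. The cluster's candidate had a different summit in each list.

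By summed difference in rank percent over the 4 ranked lists, the microRNA genes most like mir-51 were mir-239a, mir-239b and mir-4813. The mir-4813 peak, at III:4568676-4568816, had a signal of 302 and lay 2907 bp from the gene. Those most like mir-52 were mir-1018, mir-4925 and mir-4921, which share 1 peak at X:1880748-1881003 with a signal of 190, located in a tRNA gene and 1363, 1256 and 838 bp from them. None of these 6 had its peak as close to the precursor as mir-51 or mir-52.

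The 300-base windows of the 5 conservative peaks and of the upstream candidates of mir-53 and mir-54 were searched on both strands for short words. The T-box word AGGTGTGA was in none of the 7. It was in 0.542% of all conservative windows and 0.625% of genome windows of that length. Its inner part GGTGTG was in the window of the stronger peak beside mir-56 only, against 9.49% of conservative windows and 6.69% of genome windows. These counts say only that the letters are not in the other windows.

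GAGAGA was in 4 of the 7 windows: those of the mir-52 peak, the weaker peak beside mir-56 and the upstream candidates of mir-53 and mir-54. It was in 31.2% of conservative windows, 14.4% of genome windows and 16.9% of windows at microRNA genes. The mir-53 window held 8 overlapping or separate matches, mostly in a run of ctctct on the printed strand next to the precursor, and 2 of them were within the central 200 bases. GGGCGG was in the mir-54 window alone, against 13.9% of conservative windows and 4.63% of genome windows.

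GGTTCGA, the core of the B box of tRNA gene promoters, was in the mir-51 window alone, on the strand of the gene and within F36H1.17. It was in 17.0% of conservative windows, 2.15% of genome windows and 3.83% of microRNA gene windows. The full B box and A box consensus sequences, searched with their variable positions, were in none of the 7 windows. They were in 12.2% and 13.0% of conservative windows and in 0.324% and 1.47% of genome windows.

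The windows upstream of mir-51, mir-52, mir-53 and mir-54 had little sequence in common. The longest shared word of any pair was 8 to 10 bases, the 10 being between mir-52 and mir-53. Against all conservative windows the median longest shared word was 8 bases for each of the 4, with a 95th percentile of 10 or 11. In base composition the mir-51 window was 50.7% G and C, that of mir-52 48.0%, that of mir-53 44.3% and that of mir-54 54.0%. The 3 windows of 54.0%, 54.3% and 58.7% at the X cluster and that of mir-51 lay above the 90th percentile of conservative windows (49.7%, median 41.0%), and the peak between mir-51 and mir-53 had 32.0%, below the 10th percentile of 32.7%.

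Genes that make or use microRNAs were read in the same way, from a list of 17 of which 16 matched the annotation (ntl-1 did not match by symbol). In this list 4 of 16 had a conservative peak within 5000 bp of the gene start, where 11.8% of all protein-coding gene starts did. They were drsh-1, which encodes the Drosha nuclease that cuts primary transcripts (signal 119, 2999 bp), and xrn-2, a nuclease that degrades mature microRNAs (144, 1251 bp). The others were ain-1, a GW182-type partner of the Argonautes (76.0, 991 bp), and vig-1, a component of the silencing complex (75.1, 424 bp). The Argonaute genes alg-1 and alg-2 had none, and their strongest candidates had signals of 68.7 and 58.9 with IDRs of 0.0107 and 0.0228. dcr-1, which encodes Dicer, had none either (40.2, IDR 0.329). cdh-3, a cadherin gene described as a target of the family, had its nearest conservative peak 100256 bp away.

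The other large embryonic microRNA family, mir-35 to mir-42, showed a different arrangement. All 8 of its genes had a conservative peak within 5000 bp, but mir-35 to mir-41 share 3 peaks whose nearest summits were 2046 to 2746 bp from the genes, the strongest with a signal of 218. The mir-42 peak had a signal of 72.0 at 961 bp. None of the 8 had a conservative summit within 200 bp upstream.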

How the data were processed

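ChIP-seq was done on 2 biological replicates of 1 group. Per the labels the genome build was ce11; neither the aligner nor the peak caller is given in the sources used here. The authors deposited 8 lists in narrowPeak layout: ranked candidates and IDR-thresholded peaks for each replicate and for 2 series-wide combinations. Neither series-wide ranked list is labelled conservative by the authors. The name conservative ranked list is used here for the one that holds every conservative peak. Each list gives the authors' signal value, a peak-caller value that is never negative and whose scale differs between lists. It also gives a score that the authors derived from the IDR and capped at 1000, and a summit offset. The ranked lists give the −log10 of the IDR, as deposited, which was turned back into an IDR. The text files deposited beside the lists name a control and, for thresholded lists, a further file; neither was used here. A further 8 columns in the series-wide ranked lists hold values of the 2 lists compared, carry no replicate name and were not used.

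Summits were compared with Ensembl release 115 genes using Python 3.11.15, pandas 2.3.3 and numpy 2.4.6. A gene counted as having a peak when a summit lay within 5000 bp of the gene, or of the start of a protein-coding gene. Ranks are by signal within a list. Windows of 300 bases were read from the RefSeq genome. The window and distance steps were tested on simulated summits. Nothing was tested for significance, since there is 1 group and no contrast. Alternatives were other windows, the peak edge, the other series-wide list, each replicate alone and a shorter sequence window.

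Named genes were the 6 members, their nearest gene starts and noncoding genes, the conservative peaks adjacent in signal, the 3 microRNA genes closest in rank to mir-51 and to mir-52, and list genes with a peak. Other genes named (the remaining list genes, mir-5549 and mir-55b) were chosen after their values were seen. The members and lists were chosen with earlier results of these data known.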

Additional observations from a re-analysis of the deposited data

How the results depend on the processing

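The count of 6 members with a conservative peak was the same with windows of 1000, 2000 and 10000 bp, with the peak edge in place of the summit and in the other series-wide list. An IDR limit of 0.01 removed no conservative peak and so tested nothing. It was 3 to 3 in the lists without replicate 1 or without replicate 2. With settings added after seeing the data it was 3 for a window of 200 bp and 2 for summits within 200 bp upstream. Within 1000 bp the strongest candidate of mir-53 had a signal of 69.4 (rank 2.06% of the list), since the mir-51 peak then fell outside, and that of mir-54, mir-55 and mir-56 had 64.8 (2.49%); by lowest IDR the cluster's candidate also had 64.8. In the other series-wide ranked list the rank percent was 0.122% for mir-51 and mir-53, 0.615% for mir-52 and 3.36% for the cluster; mir-51 and mir-52 kept ranks 51 and 258, and that list is shorter (41925 candidates). Without 1 replicate it ranged from 0.111% to 0.182% for mir-51 and mir-53, from 0.669% to 0.733% for mir-52 and from 1.89% to 2.17% for the cluster. The cluster's values belong to candidates with different summits in the replicates. The number of windows and words that matched was 7 with 300 and with 200 bases, while the GAGAGA matches at mir-53 were 8 and 2. No paired analysis was possible because there is 1 group and no contrast.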
